A study of Mus musculus with 16 samples.

Results

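The genotype by palmitic acid interaction was measured: for each gene, the change that palmitic acid gave in HKO hepatocytes minus the change it gave in FLOX hepatocytes. All 16 samples of the series entered this contrast, and no sample was chosen by its values. Of the 55416 genes in the table, the 11858 that reached 1 TPM in at least 4 samples were tested. TPM is the share of a gene's transcripts in its sample, corrected for transcript length, and differences are given on the log2(TPM + 1) scale, which understates the changes of genes at low levels.

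The cells were primary hepatocytes from mice in which a cre-loxP cross targets Smpd3 in hepatocytes. FLOX cells have the genotype Alb-cre- and HKO cells the genotype Alb-cre+, in which Cre recombinase is driven by the albumin promoter, which is active in hepatocytes and in the embryonic precursors they share with bile duct cells. Cultures of both genotypes were exposed for 24 h to vehicle or to palmitic acid at 0.4 mM, and there are 4 samples in each of the 4 groups (FLOX vehicle, FLOX palmitic acid, HKO vehicle and HKO palmitic acid). The sources used here give neither the age of the mice nor the composition of the vehicle. Nothing in the labels says that replicates are separate animals or cultures, and the p-values below therefore reflect only sample-to-sample spread, which may be technical. The sample titles use the same numbers under vehicle and palmitic acid, without saying whether same-numbered samples share a mouse or culture. The main fit does not pair them. The contrast asks whether the response of hepatocytes to palmitic acid differs between the genotypes. This saturated fatty acid is used here as a culture model of steatohepatitis. Only the HKO genotype carries Cre, so an effect of Cre and one of Smpd3 deletion cannot be told apart.

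Smpd3 encodes neutral sphingomyelinase 2, a membrane enzyme that cleaves sphingomyelin to ceramide and phosphocholine. Palmitic acid is both a precursor of new ceramide and a fatty acid that, in excess, disturbs the membrane of the endoplasmic reticulum (ER) and activates the unfolded protein response. Cells under such stress raise chaperones of the ER through ATF6 and XBP1, raise ATF4 through reduced translation initiation, and raise cytosolic chaperones through the heat shock factor HSF1.

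The 3 largest axes of variation held 31.6%, 11.6% and 7.53% of the variance. On the third, FLOX vehicle replicate 1 (score 16.1) and FLOX palmitic acid replicate 1 (score -19.0) stood at opposite ends, so results are given with and without both. The summed level of 17 hepatocyte markers was 59190 to 78199 TPM per sample, and each marker averaged at least 1 TPM. Markers of stellate cells and fibroblasts summed to at most 2.27 TPM and those of lymphocytes and neutrophils to at most 0.48 TPM, with no marker averaging 1 TPM in either list. Endothelial markers summed to 9.74 to 17.2 TPM per sample, with 4 of 12 averaging at least 1 TPM. Erythroid markers summed to 21.4 to 25.3 TPM, with 2 of 8 averaging at least 1 TPM and Alas2 at 90.6% of the sum. Of 14 macrophage markers only Cd68 averaged 1 TPM, and it made up 97.5% of the list's sum. That sum was 49.3 to 55.8 TPM in FLOX vehicle, 56.9 to 69.6 TPM in FLOX palmitic acid, 61.5 to 71.1 TPM in HKO vehicle and 81.7 to 108 TPM in HKO palmitic acid. Of 10 cholangiocyte markers 4 averaged 1 TPM, and Spp1 made up 82.0% of their sum, which was 193 to 204, 207 to 251, 311 to 335 and 346 to 395 TPM in the same order. The macrophage and cholangiocyte sums move with genotype and treatment, and the part of any marker list in the results was not tested. In bulk samples, fewer cells of a type and less RNA per cell cannot be told apart. The summed level of the mitochondrially encoded genes was 77157 to 93428 TPM per sample, with the widest range in FLOX palmitic acid. No member of the marker lists passed the threshold of the interaction. Among tested markers the interaction was above 0 for 4 of 5 endothelial, 4 of 5 cholangiocyte and 7 of 17 hepatocyte genes. It was above 0 for 1 of 2 erythroid genes, for the 1 macrophage gene tested and for 54.3% of all genes tested.

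Smpd3 (ENSMUSG00000031906) gave a check of the labels. Its levels were 37.1, 29.7, 27.8 and 33.2 TPM in FLOX vehicle and 4.25, 5.89, 5.54 and 5.46 TPM in HKO vehicle. With palmitic acid they were 42.5, 47.1, 46.7 and 47.8 TPM in FLOX and 7.88, 9.15, 7.82 and 6.44 TPM in HKO. Every HKO sample was below every FLOX sample, and a residue of transcript was present in each HKO sample. Which exons the cross deletes is not stated in the labels. With palmitic acid Smpd3 rose 1.44-fold in FLOX and the residue rose 1.48-fold in HKO (ratios of mean TPM). The interaction of Smpd3 itself was -0.03 ± 0.149 (± SE, log2), with a 95% interval of -0.348 to 0.287 (limma adjusted p = 0.987). Of the 8 tested genes of sphingomyelin turnover and the 22 of ceramide metabolism, 0 passed the threshold of the interaction in limma, and the median interactions of these lists were -0.029 and -0.021.

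The response to palmitic acid differed between the genotypes for 23 of the 11858 genes (0.194%; limma adjusted p below 0.05 over all genes tested). The interaction was above 0 for 18 of them (0.152% of the genes tested) and below 0 for 5 (0.0422%). By comparison, palmitic acid changed 4084 genes (34.4%) in FLOX cells and 5040 (42.5%) in HKO cells, and HKO differed from FLOX in 1384 genes (11.7%) with vehicle and 1155 (9.74%) with palmitic acid. These comparisons share their samples with the interaction. At an unadjusted p below 0.05 the interaction held 893 genes (7.53%). The median interaction over all genes tested was 0.015, the quartiles were -0.082 and 0.11, and the median standard error was 0.13. Of the 23 genes, Hspa1a and Hspa1b differed by at least 1 on the log2 scale, and the smallest difference called was 0.23. A further 24 genes had an adjusted p between 0.05 and 0.1, 18 with an interaction above 0 and 6 below.

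The count depended on single libraries. It was 22, 24, 19 and 22 without FLOX palmitic acid replicate 1, FLOX palmitic acid replicate 2, HKO vehicle replicate 4 and HKO palmitic acid replicate 4, and between 8 and 13 without any one of the other 12 libraries. Without both FLOX replicates 1, 20 genes passed, 10 above 0 and 10 below, and 10 of these 20 were among the 23. With median-ratio scaling the split of 18 above and 5 below 0 became 5 and 4, and with quantile normalization 13 and 5. Every one of the 23 genes kept its sign in the 26 alternatives run. This adds little, because the genes were selected in these data for interactions large beside their standard errors. Hspa1a, Hspa1b and Cyp2a5 passed the threshold in all 26, and these 3 with Creld2, Hsp90b1, Hspa5, Igfbp1 and Sult1e1 passed it whichever single library was left out. Of the other genes, 14 passed in fewer than 8 of the 16 fits that left out a library. With no mean-variance trend the count was 5. It was 3 with the replicate block, a fit that compares same-numbered samples within each genotype. Hspa1a, Hspa1b and Cyp2a5 were these 3. With the block the limma adjusted p was 0.111 for Creld2, 0.197 for Hsp90b1, 0.299 for Hspa5, 0.109 for Igfbp1 and 0.111 for Sult1e1.

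**Figure D1:**
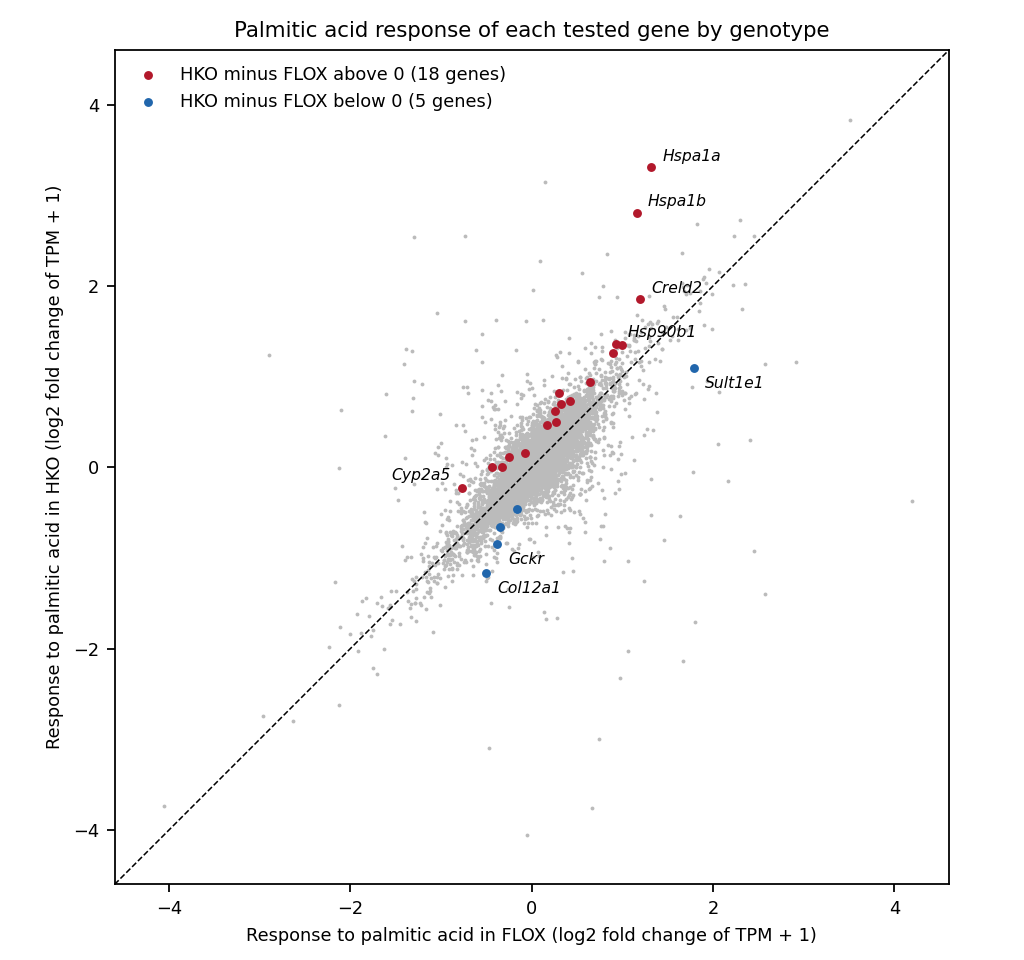
Each point is a tested gene, with its log2 fold change of TPM + 1 under palmitic acid in FLOX cells on the x axis and in HKO cells on the y axis, and the dashed line marks equal responses. The 18 genes in red and 5 in blue passed the threshold of the interaction, and Hspa1a and Hspa1b lie farthest above the line among them.

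**Figure D2:**
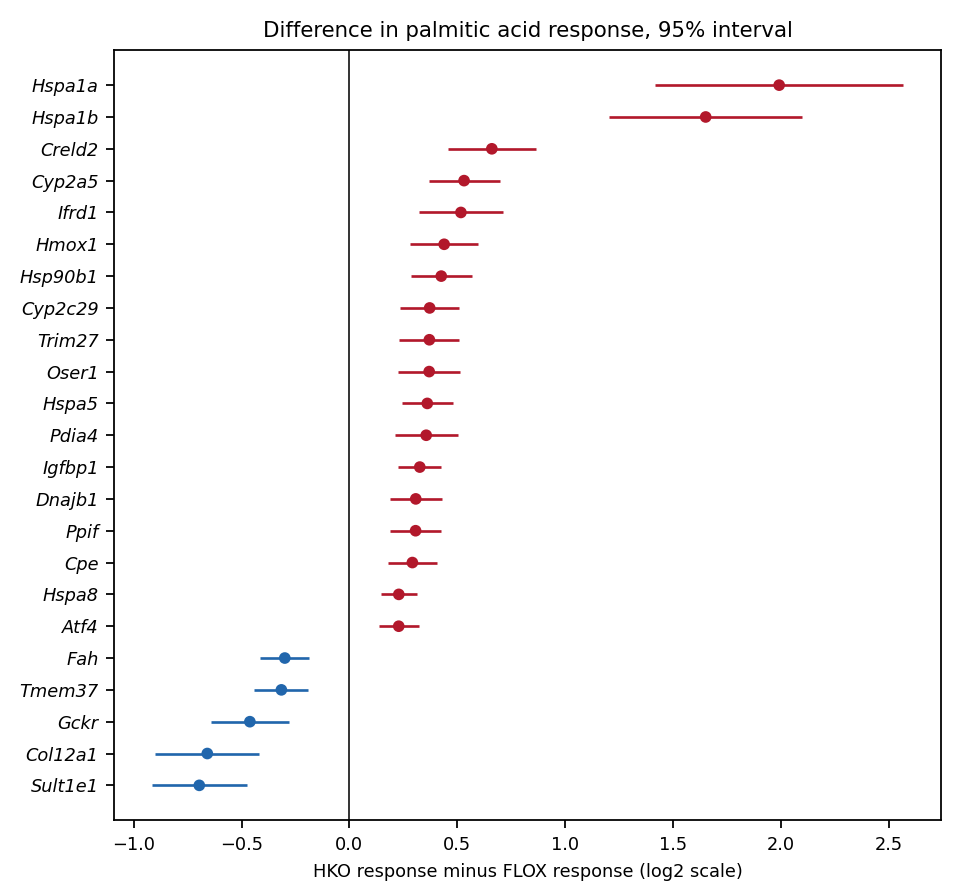
Points give the HKO response minus the FLOX response on the log2 scale for the 23 genes past the threshold, and bars the 95% interval from limma, not widened for the number of genes tested. The values run from 1.99 for Hspa1a to -0.70 for Sult1e1, and 16 of the other genes sit between 0.23 and 0.66.

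The inducible cytosolic chaperones of the HSP70 family, which bind unfolded proteins, showed the 2 largest interactions past the threshold. Hspa1a (ENSMUSG00000091971) and Hspa1b (ENSMUSG00000090877) are near-identical copies, so reads could have been split between them and the level of each copy is uncertain. For the same reason their similar changes may not be independent of each other. Their promoters are shown for description, and the part of the promoters in the response was not tested. The 250 bases before each start differ at 3 positions (98.8% identical), in capitals below (RefSeq, GRCm38.p6, both on the minus strand, chr17:34972157-34972406 for Hspa1a and chr17:34959239-34959488 for Hspa1b, written 5′ to 3′ along the gene).
Hspa1a: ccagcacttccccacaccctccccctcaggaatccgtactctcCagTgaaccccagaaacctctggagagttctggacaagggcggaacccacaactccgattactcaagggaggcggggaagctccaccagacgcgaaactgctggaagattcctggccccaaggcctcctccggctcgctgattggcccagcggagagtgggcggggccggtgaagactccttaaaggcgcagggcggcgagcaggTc
Hspa1b: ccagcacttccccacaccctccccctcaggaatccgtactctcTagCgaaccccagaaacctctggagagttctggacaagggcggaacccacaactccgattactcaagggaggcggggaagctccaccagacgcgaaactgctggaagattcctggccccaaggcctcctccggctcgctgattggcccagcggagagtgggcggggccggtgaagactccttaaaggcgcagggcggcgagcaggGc

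Hspa1a stood at 2.48, 1.49, 1.53 and 2.18 TPM in FLOX vehicle and 6.70, 7.0, 4.01 and 7.70 TPM in FLOX palmitic acid. It stood at 2.75, 2.07, 2.0 and 1.53 TPM in HKO vehicle and 36.7, 32.0, 29.9 and 21.0 TPM in HKO palmitic acid. The vehicle groups overlapped between genotypes, and every HKO palmitic acid sample was above every FLOX palmitic acid sample, the lowest of them being replicate 4. Hspa1a rose 3.31-fold in FLOX and 14.3-fold in HKO cells, with responses of 1.32 and 3.31 on the log2 scale. The interaction was 1.99 ± 0.270 (95% interval 1.42 to 2.57, limma adjusted p = 0.0115), and 1.94 (adjusted p = 0.0240) without both FLOX replicates 1.

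Hspa1b had the same order of groups at higher TPM. Its levels were 8.52, 8.46, 7.60 and 6.88 TPM in FLOX vehicle and 22.3, 18.1, 14.1 and 21.4 TPM in FLOX palmitic acid. In HKO cells they were 8.41, 9.11, 9.29 and 8.32 TPM with vehicle and 77.7, 77.7, 72.0 and 47.6 TPM with palmitic acid. The groups with palmitic acid did not overlap, and HKO palmitic acid replicate 4 was again the lowest of its group. Hspa1b rose 2.41-fold in FLOX and 7.83-fold in HKO cells. The interaction was 1.65 ± 0.210 (95% interval 1.2 to 2.1, limma adjusted p = 0.011), and 1.70 (adjusted p = 0.0154) without both FLOX replicates 1.

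The other 2 heat shock chaperones past the threshold, Dnajb1 and Hspa8, had smaller interactions, also above 0. Dnajb1, an HSP40 cochaperone that stimulates HSP70, went from 16.8 ± 0.489 to 22.9 ± 0.697 TPM in FLOX and from 16.3 ± 0.142 to 27.7 ± 0.709 TPM in HKO cells (mean ± SD, n = 4). Its 4 HKO palmitic acid samples (27.0 to 28.5 TPM) were all above the 4 FLOX ones (22.3 to 23.8 TPM), and its interaction was 0.31 ± 0.0568 (limma adjusted p = 0.0394). Hspa8, the constitutive cytosolic HSC70, went from 1481 ± 33.6 to 1782 ± 24.7 TPM in FLOX and from 1281 ± 33.2 to 1808 ± 56.6 TPM in HKO cells. For Hspa8 the vehicle samples were the ones that separated, lower in HKO, while the palmitic acid samples overlapped, and its interaction was 0.23 ± 0.0398 (limma adjusted p = 0.0344). Without both FLOX replicates 1 the adjusted p of Dnajb1 was 0.0638 and that of Hspa8 0.0607. Of the 28 heat shock chaperones tested, these 4 passed, all above 0, beside 0.194% of all genes tested. The near-identical copies Hspa1a and Hspa1b are among the 4. An interaction above 0 was seen for 22 of 28 (78.6%), against 54.3% of all genes tested. The list's median was 0.073, and it was 0.027 without both FLOX replicates 1 and 0.044 without FLOX vehicle replicate 1 alone. Of the 28, 2 passed without both FLOX replicates 1, with either other scaling (median-ratio, quantile) and with no mean-variance trend. Among members that did not pass, Dnaja1 and Hsph1, partners of HSP70, stood at 0.27 and 0.25, Dnajb4 and Hspa4, also partners, at -0.06 and -0.04, and the mitochondrial chaperonin genes Hspd1 and Hspe1 at 0.0027 and -0.05.

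Chaperones and folding enzymes of the ER formed the other group with 4 members past the threshold, again all above 0. They were Creld2, an ER protein induced by ER stress, Hsp90b1 (GRP94, the HSP90 of the ER), Hspa5 (BiP, the HSP70 of the ER) and Pdia4, a protein disulfide isomerase. The 250 bases before the start are shown for the first 3 because each holds a match to the ER stress element, the sequence through which ATF6 acts, searched on both strands as CCAAT and CCACG with 9 bases between them. Capitals mark the matches (RefSeq, GRCm38.p6, chr2:34771840-34772089 plus strand for Hspa5, chr10:86705445-86705694 minus strand for Hsp90b1, chr15:88819396-88819645 plus strand for Creld2, each 5′ to 3′ along the gene).
Hspa5: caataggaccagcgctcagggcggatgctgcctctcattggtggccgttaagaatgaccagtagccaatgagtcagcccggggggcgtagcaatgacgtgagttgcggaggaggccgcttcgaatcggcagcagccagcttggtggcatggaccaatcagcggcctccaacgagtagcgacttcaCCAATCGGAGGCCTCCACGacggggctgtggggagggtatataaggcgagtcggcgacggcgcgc
Hsp90b1: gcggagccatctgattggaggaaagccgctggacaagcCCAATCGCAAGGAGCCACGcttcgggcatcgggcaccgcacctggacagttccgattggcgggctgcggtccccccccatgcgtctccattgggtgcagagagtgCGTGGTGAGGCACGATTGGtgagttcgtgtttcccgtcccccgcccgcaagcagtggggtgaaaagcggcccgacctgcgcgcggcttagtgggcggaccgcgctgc
Creld2: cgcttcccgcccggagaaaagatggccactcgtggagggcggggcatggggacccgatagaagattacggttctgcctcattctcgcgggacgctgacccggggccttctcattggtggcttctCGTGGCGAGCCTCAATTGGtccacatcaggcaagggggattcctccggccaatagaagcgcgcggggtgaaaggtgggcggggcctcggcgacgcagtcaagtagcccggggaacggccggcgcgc

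The element is read on the reverse strand in Creld2, on the forward strand in Hspa5 and once on each strand in Hsp90b1. It occurred in 9 of the 23 tested ER genes with a promoter entry (39.1%) and in 35 of all 27025 genes in the RefSeq table (0.130%). Among the 8887 tested genes with an entry, 17 (0.191%) held it. The list was drawn up from known ER stress genes, so this share describes the list and not the interaction. Of the 23 genes past the threshold 19 had a promoter entry, and 3 of these 19 held the element. None of the 19 held an exact match to the heat shock element in this window, which 139 of the 27025 genes (0.514%) held. Of the 8887 tested genes with an entry, 40 (0.450%) held a match. The search asked for GAA, TTC and GAA, or TTC, GAA and TTC, each 2 bases apart, on both strands. Elements with a mismatch were not counted, so this count does not show that the promoters lack a heat shock element.

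Creld2 (ENSMUSG00000023272) measured 22.2, 20.5, 20.2 and 19.4 TPM in FLOX vehicle and 50.8, 47.6, 42.9 and 52.2 TPM in FLOX palmitic acid. HKO cells held 19.3, 18.8, 16.6 and 17.2 TPM with vehicle and 67.7, 64.3, 64.6 and 73.3 TPM with palmitic acid. All HKO samples lay below all FLOX samples with vehicle and above all of them with palmitic acid. It rose 2.35-fold in FLOX and 3.75-fold in HKO cells, and the interaction was 0.66 ± 0.0963 (95% interval 0.455 to 0.865, limma adjusted p = 0.0115). Without both FLOX replicates 1 it was 0.65 (adjusted p = 0.0240).

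Hsp90b1 (ENSMUSG00000020048) measured 108, 97.1, 94.7 and 95.8 TPM in FLOX vehicle and 185, 196, 181 and 197 TPM in FLOX palmitic acid. In HKO it measured 87.7, 94.9, 95.2 and 91.9 TPM with vehicle and 232, 237, 234 and 253 TPM with palmitic acid. With vehicle the genotypes overlapped, and with palmitic acid they did not. It rose 1.92-fold and 2.58-fold, an interaction of 0.43 ± 0.0662 (95% interval 0.285 to 0.567, limma adjusted p = 0.015), and 0.37 (adjusted p = 0.0290) without both FLOX replicates 1. With no mean-variance trend the adjusted p was 0.0801.

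Hspa5 (ENSMUSG00000026864) measured 247, 244, 243 and 238 TPM in FLOX vehicle and 457, 465, 427 and 470.3 TPM in FLOX palmitic acid. Levels in HKO were 234, 235, 245 and 219 TPM with vehicle and 544, 563, 541 and 590.1 TPM with palmitic acid. The same pattern held: overlap with vehicle, separation with palmitic acid. It rose 1.87-fold and 2.40-fold, an interaction of 0.36 ± 0.0560 (95% interval 0.242 to 0.48, limma adjusted p = 0.015), and 0.36 (adjusted p = 0.0427) without both FLOX replicates 1. With median-ratio scaling the adjusted p was 0.115, and with no mean-variance trend 0.0831. Pdia4 went from 35.7 ± 2.43 to 72.0 ± 2.35 TPM in FLOX and from 34.3 ± 1.45 to 88.9 ± 2.87 TPM in HKO cells. Its interaction of 0.36 ± 0.0682 lay at the threshold (limma adjusted p = 0.0497) and passed in none of the 16 fits that left out a library.

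**Figure D3:**
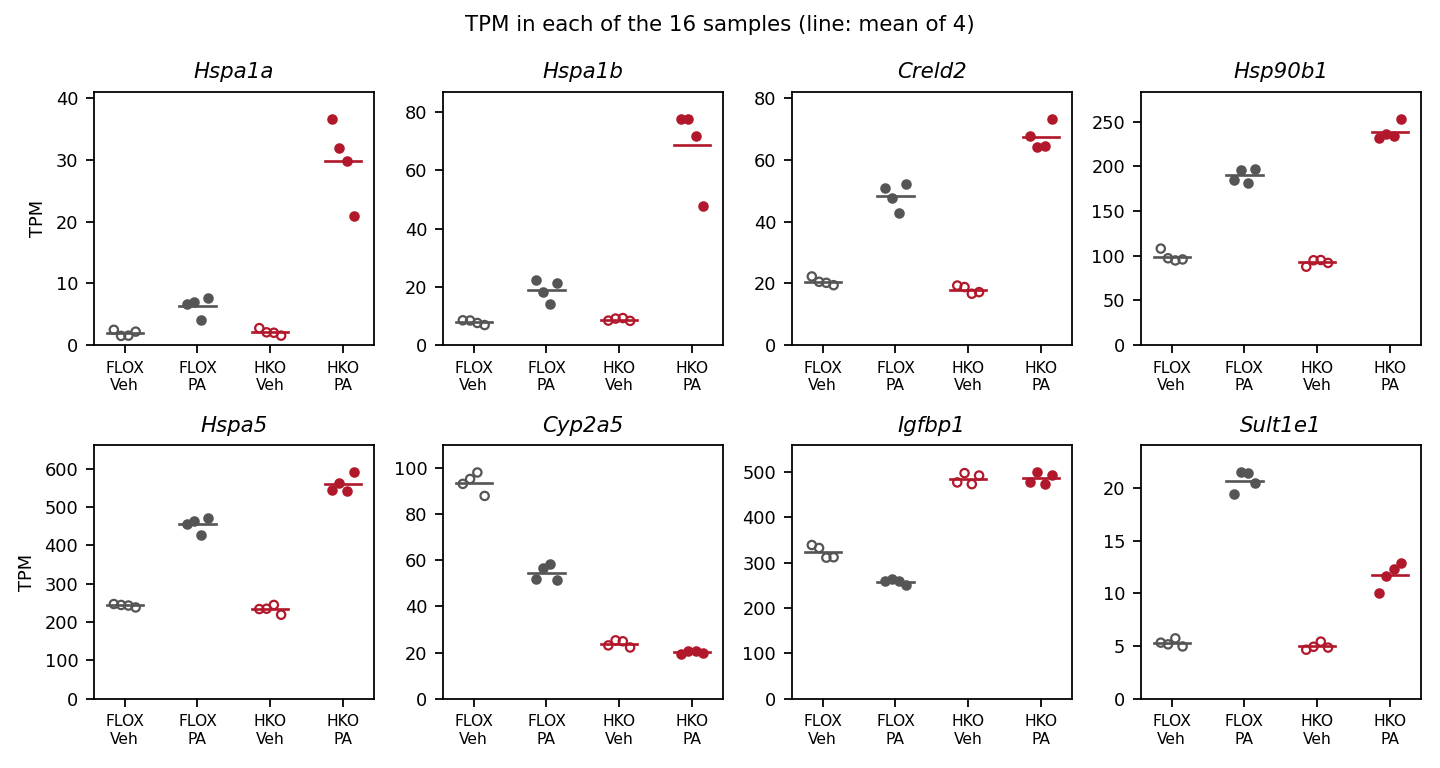
TPM in each of the 16 samples for the 8 genes that passed the threshold whichever library was left out, FLOX in grey and HKO in red, vehicle as open and palmitic acid as filled circles, with a line at the mean of 4. In the upper row and for Hspa5 the HKO palmitic acid samples are the highest, while Cyp2a5 and Igfbp1 already differ with vehicle and Sult1e1 is highest in FLOX palmitic acid.

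Of the 25 ER genes tested, 4 passed, beside 0.194% of all genes tested. An interaction above 0 was seen for 21 (84.0%), against 54.3% of all genes. The list's median was 0.16, against 0.015 for all genes. The count past the threshold was 3 without both FLOX replicates 1, 2 with median-ratio scaling and 1, Creld2, with no mean-variance trend, and the median stayed between 0.12 and 0.18 in all alternatives run on this scale. Sdf2l1, a component of the ER chaperone complex, had the largest difference of the list, from 11.5 to 20.2 TPM in FLOX and from 10.2 to 29.7 TPM in HKO cells. Its interaction of 0.71 ± 0.149 missed the threshold (limma adjusted p = 0.0765). Hyou1, an ER chaperone of the HSP110 class, Manf, a secreted ER stress protein, and Dnajb9, a cochaperone of BiP, stood at 0.43, 0.36 and 0.34 (limma adjusted p = 0.223, 0.427 and 0.334). Neither lectin chaperone passed: calreticulin, Calr, stood at 0.17 and calnexin, Canx, at -0.04.

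**Figure D4:**
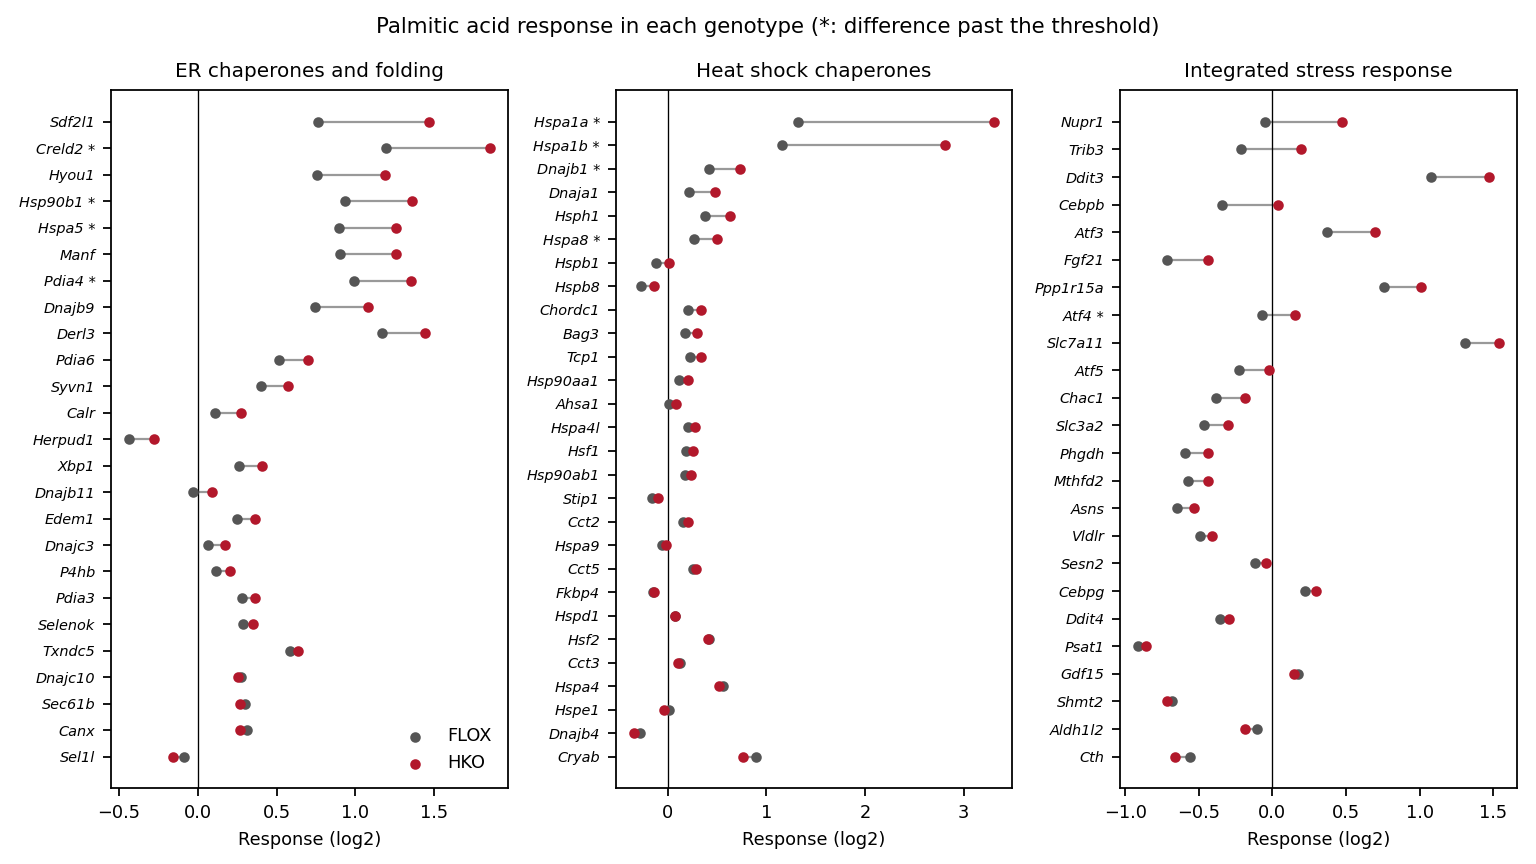
For every tested member of 3 stress lists, the log2 response to palmitic acid in FLOX cells (grey) is joined to that in HKO cells (red), and an asterisk marks a difference past the threshold. The HKO point lies to the right for 21 of 25 ER genes, 22 of 28 heat shock genes and 20 of 24 genes of the integrated stress response.

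The integrated stress response had 1 member past the threshold among 24 tested, the transcription factor Atf4 itself. Atf4 ranged over 226 to 238 TPM in FLOX vehicle and 215 to 230.3 TPM in FLOX palmitic acid. In HKO cells it ranged over 221 to 234 and 246 to 258 TPM. Only the HKO palmitic acid samples stood apart from all others. The response was -0.07 in FLOX cells, which did not pass the threshold (limma adjusted p = 0.0747), and 0.15 in HKO cells, which did (adjusted p = 8.28e-04). The interaction was 0.23 ± 0.0435 (adjusted p = 0.0485), and 0.22 (adjusted p = 0.0699) without both FLOX replicates 1. The list's median was 0.16, and 20 of 24 members (83.3%) had an interaction above 0, against 54.3% of all genes tested. The core of the ATF4 composite element, TGATGNAA, stood in the 250 upstream bases of 7 of the 22 members with an entry (31.8%), against 1056 of 27025 genes (3.91%). Among tested genes with an entry the share was 217 of 8887 (2.44%). Atf4 itself held no match. Known ATF4 targets were chosen for this list, so the share describes the list and not the interaction.

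Members of that list responded in both directions. Ddit3 (CHOP, a factor of ER stress and cell death) rose from 12.2 to 26.8 TPM in FLOX and from 13.01 to 38.5 TPM in HKO cells, and Ppp1r15a (GADD34, which restores translation) from 32.5 to 55.6 and from 37.5 to 76.4 TPM. Their interactions of 0.40 and 0.25 did not pass (limma adjusted p = 0.584 and 0.689). Trib3, a pseudokinase induced by ATF4, fell from 42.2 to 36.2 TPM in FLOX cells and rose from 41.6 to 47.9 TPM in HKO cells, with an interaction of 0.41 (limma adjusted p = 0.0765). Asns, the asparagine synthetase, fell in both genotypes, with responses of -0.65 in FLOX and -0.53 in HKO, and so did Psat1, of serine synthesis, with -0.91 and -0.86.

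Lists of early transcription factors and inflammatory genes held no gene past the threshold. Of 22 AP-1 and immediate early genes, 19 (86.4%) had an interaction above 0, against 54.3% of all genes tested. Their median was 0.17, and 0 passed in limma. Fosl1, an AP-1 subunit, rose from 22.3 to 43.3 TPM in FLOX and from 12.9 to 49.8 TPM in HKO cells, and its interaction of 0.93 ± 0.180 had an adjusted p of 0.0547. Junb, another subunit, stood at 0.41 (adjusted p = 0.0765), with a response of -0.15 in FLOX that did not pass and a rise of 0.26 in HKO. Of 18 genes of NF-kB, chemokine and cytokine signalling 13 (72.2%) were above 0, with a median of 0.17, which was 0.070 with no filter on TPM. Ccl2, a monocyte chemokine, fell from 310 to 155 TPM in FLOX and from 376 to 267 TPM in HKO cells, and its interaction of 0.49 did not pass (adjusted p = 0.412).

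A further group of genes above 0 did so because they fell in FLOX cells and fell less, or not past the threshold, in HKO cells. Cyp2a5 (ENSMUSG00000005547), a P450 that hydroxylates coumarin, measured 93.2, 95.3, 98.1 and 87.9 TPM in FLOX vehicle and 51.8, 56.8, 58.4 and 51.7 TPM in FLOX palmitic acid. HKO samples held 23.1, 25.3, 24.9 and 22.2 TPM with vehicle and 19.3, 20.6, 20.9 and 19.8 TPM with palmitic acid. The 4 groups did not overlap, and the genotypes were apart before any palmitic acid was given. Cyp2a5 fell to 0.584 of its vehicle level in FLOX cells and to 0.843 in HKO cells, a loss of 38.9 and of 3.75 TPM. The interaction was 0.53 ± 0.0773 (95% interval 0.367 to 0.696, limma adjusted p = 0.0115), and 0.51 (adjusted p = 0.0328) without both FLOX replicates 1.

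Cyp2c29, another drug-metabolizing P450, went from 65.9 ± 1.22 to 55.0 ± 2.69 TPM in FLOX and from 29.4 ± 1.81 to 31.9 ± 0.252 TPM in HKO cells. It fell in FLOX, while its response of 0.12 in HKO did not pass (limma adjusted p = 0.0527). Its interaction was 0.37 ± 0.0649 (adjusted p = 0.0344, and 0.0607 without both FLOX replicates 1). These 2 were the genes past the threshold among 22 tested P450 genes of drug metabolism. Of the 22, 17 (77.3%) were above 0, against 54.3% of all genes tested, with a median of 0.058. Cyp2e1, the ethanol-oxidizing P450, was also lower in HKO cells, with 155 and 159 TPM in FLOX and 58.8 and 76.9 TPM in HKO cells with vehicle and palmitic acid, and its interaction of 0.34 did not pass (adjusted p = 0.237).

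Igfbp1 (ENSMUSG00000020429), which binds insulin-like growth factors and is restrained by insulin, measured 339, 332, 311 and 312 TPM in FLOX vehicle and 259, 264, 259 and 251 TPM in FLOX palmitic acid. The HKO values were 477, 498, 473 and 492 TPM with vehicle and 478, 499, 473 and 493 TPM with palmitic acid. All HKO samples were above all FLOX samples, and the 2 HKO groups covered nearly the same range, with same-numbered samples close to each other. Igfbp1 fell by 65.3 TPM in FLOX cells and differed by 0.955 TPM in HKO cells (limma adjusted p = 0.959). The interaction was 0.33 ± 0.0471 (95% interval 0.226 to 0.426, adjusted p = 0.0115), 0.31 (adjusted p = 0.0240) without both FLOX replicates 1, and 0.31 (adjusted p = 0.0707) with median-ratio scaling. With no mean-variance trend the adjusted p was 0.0831.

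Hmox1, the heme oxygenase induced by oxidative stress, ranged over 387 to 419 TPM in FLOX vehicle and 276 to 308 TPM in FLOX palmitic acid. It ranged over 350.5 to 408 TPM in HKO vehicle and 349 to 392 TPM in HKO palmitic acid. The FLOX palmitic acid samples were lowest and separate from the other 3 groups, whose ranges overlapped. The response in FLOX cells was -0.44, and the HKO means were 372 TPM in both treatments. The interaction was 0.44 ± 0.0735 (limma adjusted p = 0.0304, and 0.0607 without both FLOX replicates 1). It was the only one of 27 tested genes of NRF2 and oxidative stress to pass, and the list's median was -0.012.

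Genes of other functions also rose more in HKO cells. Ifrd1, a transcriptional coregulator, rose from 73.1 ± 2.09 to 90.3 ± 3.04 TPM in FLOX and from 61.1 ± 5.23 to 109 ± 10.7 TPM in HKO cells. Its interaction was 0.52 ± 0.0909 (limma adjusted p = 0.0344). HKO samples were below FLOX with vehicle and above FLOX with palmitic acid in all 4 replicates. Trim27, a RING finger ubiquitin ligase, rose from 29.5 ± 0.861 to 37.2 ± 1.22 TPM in FLOX and from 24.2 ± 0.815 to 39.9 ± 2.36 TPM in HKO cells, with an interaction of 0.37 ± 0.0656 (adjusted p = 0.0344). Its HKO vehicle samples were all below the FLOX ones, and its palmitic acid samples overlapped between genotypes. Oser1, a nuclear gene named for its response to oxidants, rose from 31.0 ± 1.16 to 37.2 ± 2.14 TPM in FLOX and from 28.9 ± 1.16 to 45.2 ± 1.41 TPM in HKO cells, an interaction of 0.37 ± 0.0676 (adjusted p = 0.0386).

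Ppif, cyclophilin D of the mitochondrial permeability pore, rose from 64.8 ± 2.51 to 72.7 ± 2.38 TPM in FLOX and from 63.7 ± 2.56 to 88.7 ± 2.01 TPM in HKO cells. The vehicle samples overlapped and the palmitic acid samples did not, and the interaction was 0.31 ± 0.0557 (limma adjusted p = 0.0386). Cpe, the prohormone-processing carboxypeptidase E, rose from 53.4 ± 0.899 to 84.0 ± 1.08 TPM in FLOX and from 43.1 ± 1.75 to 83.4 ± 3.38 TPM in HKO cells. For Cpe the genotypes were apart with vehicle and overlapped with palmitic acid, and the interaction was 0.29 ± 0.0532 (adjusted p = 0.0386). Without both FLOX replicates 1, Trim27 kept its call (adjusted p = 0.0427), while Ifrd1, Oser1, Ppif and Cpe had adjusted p-values of 0.0693, 0.0693, 0.0654 and 0.0682. Of the 16 fits that left out a library, Trim27 passed in 4, Ifrd1 in 4, Oser1 in 2, Ppif in 2 and Cpe in 1. With median-ratio scaling the adjusted p of Trim27 was 0.173.

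The 5 genes with an interaction below 0 were Sult1e1, Col12a1, Gckr, Tmem37 and Fah. Sult1e1 (ENSMUSG00000029272), the estrogen sulfotransferase, was the one of them that rose. It measured 5.32, 5.16, 5.73 and 4.96 TPM in FLOX vehicle and 19.4, 21.5, 21.4 and 20.5 TPM in FLOX palmitic acid. In HKO it measured 4.65, 4.93, 5.42 and 4.85 TPM with vehicle and 10.1, 11.6, 12.3 and 12.9 TPM with palmitic acid. The vehicle samples overlapped between genotypes, and every FLOX palmitic acid sample was above every HKO one. Sult1e1 rose 3.91-fold in FLOX and 2.36-fold in HKO cells. The interaction was -0.70 ± 0.104 (95% interval -0.916 to -0.475, limma adjusted p = 0.0122), and -0.73 (adjusted p = 0.0240) without both FLOX replicates 1.

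The other 4 fell in both genotypes, and fell further in HKO cells. Col12a1, a collagen that decorates fibrils, measured 40.9, 40.0, 36.2 and 38.8 TPM in FLOX vehicle and 23.1, 27.8, 31.3 and 27.1 TPM in FLOX palmitic acid. In HKO it measured 41.6, 49.6, 48.1 and 41.5 TPM with vehicle and 19.7, 18.9, 19.4 and 20.4 TPM with palmitic acid. HKO samples were above FLOX with vehicle and below FLOX with palmitic acid. The interaction was -0.66 ± 0.113 (limma adjusted p = 0.0344), and -0.76 (adjusted p = 0.0154) without both FLOX replicates 1. Of the 12 stellate cell and fibroblast markers none averaged 1 TPM, as given above, and which cells the Col12a1 transcript came from was not tested.

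Gckr, a liver regulator of glucose metabolism, measured 55.5, 54.8, 55.9 and 51.7 TPM in FLOX vehicle and 42.5, 42.6, 44.0 and 37.2 TPM in FLOX palmitic acid. HKO cells measured 60.5, 64.9, 68.7 and 59.6 TPM with vehicle and 34.8, 37.7, 33.8 and 33.0 TPM with palmitic acid. HKO samples were the higher with vehicle, and with palmitic acid the ranges met only at FLOX replicate 4. The interaction was -0.46 ± 0.0846 (limma adjusted p = 0.0386, and 0.0693 without both FLOX replicates 1). Pklr, the liver pyruvate kinase, stood at -0.36 (adjusted p = 0.656). Igfbp1 was the 1 of 13 tested glucose metabolism genes to pass, and the list, which does not hold Gckr, had a median of -0.089. Interactions in that list ran from -0.36 to 0.79, and 4 of 13 were above 0.

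Fah, the last enzyme of tyrosine breakdown, fell from 98.1 ± 1.52 to 87.7 ± 1.83 TPM in FLOX and from 106 ± 2.29 to 77.0 ± 4.25 TPM in HKO cells. Its interaction was -0.30 ± 0.0531 (limma adjusted p = 0.0344), and it was the 1 of 26 genes of the urea cycle and amino acid breakdown to pass, beside a list median of 0.013. Tmem37, a membrane protein related to calcium channel subunits, fell from 212 ± 6.24 to 166 ± 7.31 TPM in FLOX and from 199 ± 6.52 to 125 ± 6.16 TPM in HKO cells, an interaction of -0.32 ± 0.0589 (adjusted p = 0.042). With palmitic acid, every HKO sample of both genes was below every FLOX sample. Without both FLOX replicates 1 the adjusted p was 0.0637 for Fah and 0.0723 for Tmem37.

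**Figure D5:**
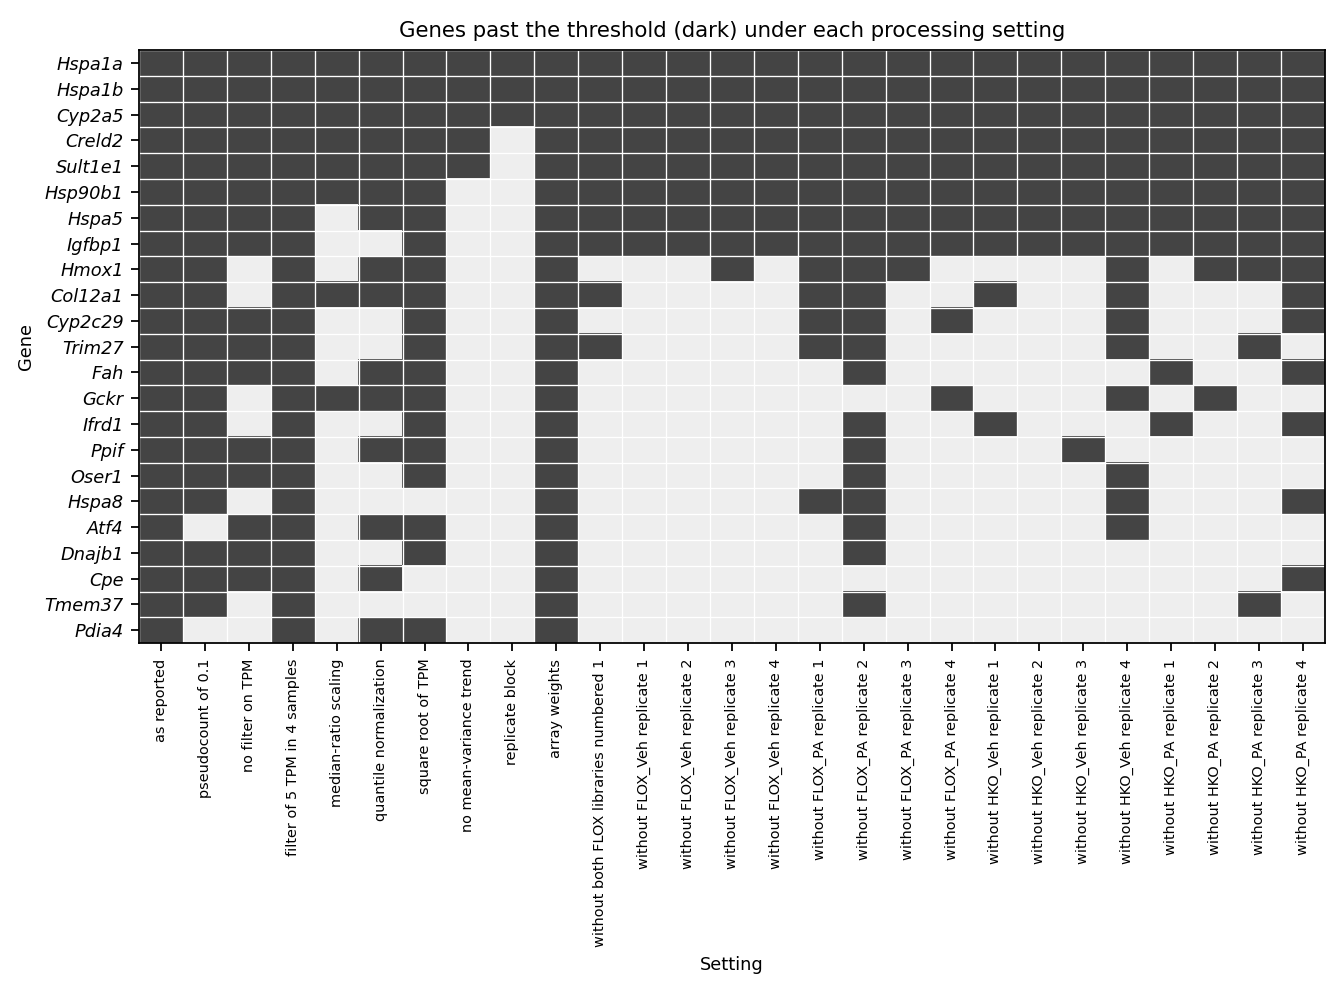
Each line is 1 of the 23 genes and each column a way of processing the data, and a dark cell means that the gene passed the threshold of the interaction there. The top 3 genes are dark throughout and the next 5 in all 16 columns that leave out 1 library, while the rest are mostly pale in those columns.

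Genes of lipid handling that responded strongly to palmitic acid did not pass in the interaction, and the 6 described here were chosen after their values were seen. Plin2, the coat protein of lipid droplets, ranged over 458 to 508 TPM in FLOX vehicle and 2296 to 2797 TPM in FLOX palmitic acid. In HKO it ranged over 385 to 419 TPM with vehicle and 2229 to 2531 TPM with palmitic acid. It rose 5.51-fold in FLOX and 5.89-fold in HKO cells, with an interaction of 0.10 (95% interval -0.0735 to 0.269). Cidec, which enlarges droplets, rose 3.69-fold and 3.56-fold, with an interaction of -0.05 (95% interval -0.264 to 0.16). A difference anywhere within these intervals could not be told from none.

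Among genes of fatty acid use, Pdk4, the kinase that shuts off pyruvate oxidation, rose from 1.8 to 32.0 TPM in FLOX cells. In HKO cells Pdk4 rose from 0.96 to 26.9 TPM. These are ratios of 17.8-fold in FLOX and 28.0-fold in HKO cells over low vehicle levels. In TPM the rise was larger in FLOX, 30.2 against 25.9. The interval for the interaction of Pdk4 was wide (-0.208 to 0.841). Angptl4, an inhibitor of lipoprotein lipase, stood at 0.21 (95% interval 0.0577 to 0.37, limma adjusted p = 0.427). Fdps, of isoprenoid synthesis, fell in both genotypes, with an interaction of -0.10 (95% interval -0.256 to 0.0649). Scd1, the stearoyl-CoA desaturase that turns saturated into monounsaturated fatty acids, fell from 490.5 ± 43.7 to 353 ± 44.7 TPM in FLOX and from 424 ± 24.2 to 232 ± 11.9 TPM in HKO cells. Its interaction was -0.39 ± 0.117 (limma adjusted p = 0.307), and -0.54 (adjusted p = 0.0203) without both FLOX replicates 1, of which the vehicle sample was the highest of its group at 550.4 TPM and the palmitic acid sample the lowest of its group at 289 TPM.

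As lists, cholesterol synthesis had 2 of 24 members (8.33%) with an interaction above 0 and a median of -0.13, and lipogenesis 5 of 22 (22.7%) and a median of -0.12. In limma 0 genes of either list passed. Without both FLOX replicates 1 the medians were -0.20 and -0.19, and 1 lipogenesis gene, Scd1, passed. Of the 33 pathway lists, 7 held a gene past the threshold, and 9 of the 23 genes were in no list.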

How the data were processed

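The deposited values were TPM, computed by the authors for 55416 mouse Ensembl gene IDs, and the submitters' processing notes list RSEM 1.3.3. The genome build in those notes is a human one, so no gene coordinates are given for the files. The aligner and annotation were not given in the sources used here. Sequencing depth cannot be read from TPM, and precision comes from the spread of 4 samples per group. The library kit is stranded, per the labels' protocols, but whether counting used strand is not given.

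Genes with at least 1 TPM in at least 4 samples (11858) were fitted in limma 3.58.1 (R 4.3.3) as log2(TPM + 1), and the fit was tested on simulated data. The simulated noise was independent for each gene and sample, so this test does not cover deviations that many genes of a library share. A single model held all 16 samples, with 4 group means, a trend of variance on mean level and no covariate. The interaction was (HKO palmitic acid minus HKO vehicle) minus (FLOX palmitic acid minus FLOX vehicle). Two-sided p-values were adjusted (Benjamini-Hochberg) across the 11858 genes, and the threshold was 0.05. A gene name table matched 52083 of 55416 IDs (94.0%) and 11803 of the 11858 tested. Fold values are ratios of mean TPM. Promoters are the 250 bases before the start in a RefSeq table of GRCm38.p6, matched by symbol.

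Named were Smpd3, up to 12 genes per direction with the largest interaction past the threshold and a group mean of at least 5 TPM, and up to 3 members past it per list. Ppif, Cpe and Dnajb1, outside this rule, complete the genes past the threshold. Plin2, Cidec, Pdk4, Angptl4, Fdps, Scd1 and the list members that missed the threshold were singled out after their values were seen. The contrast, the members and the 33 pathway and 7 marker lists were chosen with earlier results of these data known. Lists were described by counts and medians and not tested. The alternatives covered the pseudocount (0.1), the TPM filter (none, or 5), the scaling (median-ratio or quantile), the square root in place of the log, no trend, the replicate block, array weights, leaving out each sample, and leaving out both FLOX replicates 1.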

Additional observations from a re-analysis of the deposited data

Results flagged for a closer look

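The response to palmitic acid differed between the genotypes for 23 genes, by the test of the difference itself. A sample stood far from the other 3 of its group in 3 of 120 groups of 4 examined, over 30 genes, and chance gives about 1 in 20. Cyp2c29 in HKO palmitic acid replicate 3 was 31.5 TPM, below 3 samples that lay close together. Cidec in HKO vehicle replicate 1 was 26.4 TPM, below the other 3. Fdps in HKO vehicle replicate 4 was 777 TPM, above the other 3.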

How the results depend on the processing

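TPM keeps no depth, and with a median standard error of 0.13 small differences in response were not detectable here. The 23 interaction genes became 9 with median-ratio scaling (5 above 0), 5 with no mean-variance trend (4 above 0, 1 below) and 40 with array weights (29 above, 11 below). They numbered 20 with no filter (3 below 0) and 20 without both FLOX replicates 1 (10 above, 10 below). With a pseudocount of 0.1, a filter of 5 TPM, quantile normalization and the square root of TPM they numbered 21, 26, 18 and 26. The lists with a gene past the threshold, 7 as reported, were 3 with median-ratio scaling, 3 with no trend and 12 with array weights. Leaving out 1 sample at a time gave 8 to 24 interaction genes, 7 to 20 above 0 and 1 to 9 below, and 4 to 10 lists. It gave 3351 to 4853 genes changed by palmitic acid in FLOX and 4382 to 5386 in HKO, and 975 to 1598 and 866 to 1202 differing between genotypes with vehicle and with palmitic acid. Whether same-numbered samples share a mouse or culture is not stated, and the values cannot settle it. Deviations of same-numbered samples correlated at -0.15 to 0.086, with 0 of 8 pairs above 0.1. Of the 8 vehicle samples, 2 correlated best with the palmitic acid sample of their own number. With the replicate block 3 genes passed, 3 above 0 and 0 below (Hspa1a, Hspa1b and Cyp2a5), in 2 lists, and 0 of the ER chaperones. With the block the adjusted p was 0.111 for Creld2, 0.197 for Hsp90b1, 0.299 for Hspa5, 0.109 for Igfbp1 and 0.111 for Sult1e1. The interaction of Smpd3, near 0, ran from -0.11 to 0.049 without single samples and changed sign to 0.026 with a pseudocount of 0.1 and to 0.0010, 0.031, 0.016 and 0.049 without FLOX vehicle replicate 2, FLOX vehicle replicate 3, HKO vehicle replicate 2 and HKO palmitic acid replicate 4. On the square root scale, which weighs high levels more, the interactions of Plin2, Pdk4 and Angptl4 changed sign to -0.86, -0.064 and -0.43, and none passed the threshold on either scale. The cause of these changes was not tested.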
